A study of Mus musculus with 12 samples.

Results

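The 58 mouse genes described here encode proteins of mitosis, the kinetochore and the spindle. They were taken from a fixed list of gene names, each matched to 1 of the 49315 gene identifiers in the counts, and all 58 were among the 17416 genes with enough counts to test. RNA was sequenced from primary mouse adult fibroblasts (MAFs) isolated from the ears of adult female C57BL/6 mice (wild type, WT) and of Bmal1 -/- mice (KO), in which the gene of the circadian transcription factor BMAL1 was targeted. Control cells of both genotypes were sham irradiated, and senescent cells of both genotypes were given an X-ray dose of 20 Gy and cultured further. Cells of all 4 groups (control and senescent cells of either genotype) were treated with 100 nM dexamethasone, a glucocorticoid that synchronises the clocks of cultured cells, and were collected 12 h later. Each group held 3 libraries, and the KO genotype was that of the animals from which the cells were isolated. How many animals gave the 3 libraries of a group is not given in the sources used here, so p-values measure the spread between libraries, which may be technical in part.

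Mitosis divides the replicated chromosomes between daughter cells. Kinases such as PLK1, Aurora A and Aurora B drive entry and order the later steps, kinetochores built on the centromere hold chromosomes to spindle microtubules, and the spindle checkpoint restrains the anaphase-promoting complex and its activator CDC20 until every chromosome is attached. Most genes of this machinery are transcribed late in the cell cycle, and senescence, a stable growth arrest, lowers them in fibroblasts. In cycling cells they are activated by the MuvB complex with B-MYB and FoxM1, and in arrested cells they are repressed by the DREAM complex. Both act through a promoter element called the cell cycle genes homology region (CHR), often next to CCAAT boxes that bind NF-Y.

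The promoters of 7 members are printed as examples with and without these elements. Each is the RefSeq window from 250 bases before to 50 bases after a transcription start in GRCm38.p6, read 5′ to 3′ on the strand of the gene, and capitals mark CHR letters (TTTGAA or TTCGAA) and CCAAT, each searched on both strands. The windows were chr4:118437294-118437593 (minus strand) for Cdc20, chr2:172370521-172370820 (minus) for Aurka, chr2:127831810-127832109 (minus) for Bub1, chr1:189688037-189688336 (minus) for Cenpf, chr11:99024140-99024439 (minus) for Top2a, chr3:40799701-40800000 (plus) for Plk4 and chr11:43425932-43426231 (minus) for Pttg1.
Cdc20: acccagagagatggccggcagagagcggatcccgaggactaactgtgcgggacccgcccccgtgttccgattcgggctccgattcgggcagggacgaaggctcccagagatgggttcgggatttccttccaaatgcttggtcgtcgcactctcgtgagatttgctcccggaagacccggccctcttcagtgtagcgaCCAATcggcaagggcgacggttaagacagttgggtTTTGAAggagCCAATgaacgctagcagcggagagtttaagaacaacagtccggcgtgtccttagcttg
Aurka: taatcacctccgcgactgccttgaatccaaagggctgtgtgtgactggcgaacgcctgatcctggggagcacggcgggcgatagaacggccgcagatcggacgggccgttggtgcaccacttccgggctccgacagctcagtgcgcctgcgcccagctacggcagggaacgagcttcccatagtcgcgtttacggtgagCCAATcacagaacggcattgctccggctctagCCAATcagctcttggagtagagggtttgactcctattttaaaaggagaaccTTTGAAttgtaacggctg
Bub1: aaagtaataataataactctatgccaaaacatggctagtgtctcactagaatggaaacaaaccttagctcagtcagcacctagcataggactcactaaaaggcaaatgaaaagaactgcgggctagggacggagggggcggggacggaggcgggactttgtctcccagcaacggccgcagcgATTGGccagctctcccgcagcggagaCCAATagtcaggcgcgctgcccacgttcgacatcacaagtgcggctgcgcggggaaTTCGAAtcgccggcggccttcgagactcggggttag
Cenpf: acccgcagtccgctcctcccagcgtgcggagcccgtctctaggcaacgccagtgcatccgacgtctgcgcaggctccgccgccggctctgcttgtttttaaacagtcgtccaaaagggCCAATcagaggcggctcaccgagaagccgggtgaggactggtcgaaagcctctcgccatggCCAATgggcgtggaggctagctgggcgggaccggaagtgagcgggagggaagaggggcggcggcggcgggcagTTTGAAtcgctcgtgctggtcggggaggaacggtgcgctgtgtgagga
Top2a: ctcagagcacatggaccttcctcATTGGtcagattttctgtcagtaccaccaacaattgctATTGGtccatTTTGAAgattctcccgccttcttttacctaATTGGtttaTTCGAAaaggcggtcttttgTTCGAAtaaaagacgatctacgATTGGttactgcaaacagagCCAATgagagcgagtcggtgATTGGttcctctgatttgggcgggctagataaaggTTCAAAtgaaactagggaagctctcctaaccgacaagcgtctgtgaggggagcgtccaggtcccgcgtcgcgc
Plk4: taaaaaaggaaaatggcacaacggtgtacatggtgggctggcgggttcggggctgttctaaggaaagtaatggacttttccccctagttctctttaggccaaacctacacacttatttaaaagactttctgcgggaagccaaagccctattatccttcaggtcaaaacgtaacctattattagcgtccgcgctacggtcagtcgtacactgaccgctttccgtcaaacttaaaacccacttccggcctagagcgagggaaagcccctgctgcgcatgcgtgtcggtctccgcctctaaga
Pttg1: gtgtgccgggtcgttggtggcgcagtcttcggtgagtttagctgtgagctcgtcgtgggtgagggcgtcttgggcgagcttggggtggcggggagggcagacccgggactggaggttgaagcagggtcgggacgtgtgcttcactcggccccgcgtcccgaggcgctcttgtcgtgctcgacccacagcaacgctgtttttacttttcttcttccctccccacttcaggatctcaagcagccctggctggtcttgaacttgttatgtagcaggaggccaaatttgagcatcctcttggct
In Cdc20 the CHR began at position −18 from the transcription start, and CCAAT boxes began at −53 and −8. Top2a held 6 CCAAT boxes and 4 CHR matches. Plk4 and Pttg1 held none of the motifs searched. The other printed promoters each held a CHR and at least 2 CCAAT boxes, which 35.8% of member promoters did. Further arrangements among the members are not printed, such as a CHR without CCAAT (Ndc80) and CCAAT without a CHR (Cenpe). The Pttg1 window lay wholly inside the annotated gene (chr11:43420250-43426251), so no base before the annotated 5′ end of the gene was searched.

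The RefSeq table held 53 promoters of 49 members and 32851 promoters of all genes. CHR letters stood in 38 member promoters, 71.7%, and in 19.2% of all promoters. CCAAT stood in 69.8% of member promoters and in 37.4% of all. A CHR together with at least 2 CCAAT boxes was found in 35.8% of member promoters and in 2.31% of all. E2F sites (TTTCCCGC, TTTGGCGC or TTTCGCGC) stood in 9.43% of member promoters and 1.84% of all, and the E-box CACGTG, which BMAL1 and CLOCK bind, in 5.66% and 7.15%. These shares describe letters in a window of fixed length, with both strands searched and palindromic matches counted once, and no binding was measured here. The windows of some members lay wholly inside the annotated gene.

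Library totals ranged from 23923030 to 31736083 counts, and the members together took 14259 to 150443 counts of a library. No member had fewer than 8 counts in any library. Levels are given as CPM, counts scaled to the size of each library after edgeR's TMM normalization, and differences are log2 fold changes with a standard error (SE) from edgeR's quasi-likelihood test over all 17416 genes. A gene was called when it passed a Benjamini-Hochberg adjusted p of 0.05 with a log2 fold change beyond 1 in size. Arntl, the gene of BMAL1, was at 29.8 to 33.2 CPM in WT controls, 35.2 to 37.4 in WT senescent, 11.8 to 15.2 in KO control and 25.3 to 27.5 CPM in KO senescent libraries, so every KO library lay below every WT library of the same state, and the gene count did not fall to 0. The 10 fibroblast markers, among them Col1a1 and Pdgfra, summed to 20020 to 26340 CPM in the control and 9852 to 12160 CPM in the senescent libraries of both genotypes, without overlap. Of the 10 markers, 3 were called lower and 4 higher in senescent WT cells, and 3 lower and 2 higher in senescent KO cells. Over all genes 5.90% were called lower and 11.6% higher in WT cells, and 7.58% and 11.2% in KO cells. The median log2 fold changes of the markers were 0.58 in WT and 0.06 in KO cells. The part of their lower sum in the members' fall was not tested.

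WT control replicate 2 stood apart for these genes. It was the lowest of its group for all 58 members, with a median deviation of −0.20 on the log2 scale from the mean of the group, while its median deviation over all genes was −0.01. KO control replicate 1 was the highest of its group for 51 members. Among KO senescent libraries, replicate 1 was the highest for 40 members and replicate 3 the lowest for 45.

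The summed level of the 58 genes was far lower in senescent than in control cells of both genotypes. It was 5385, 4506 and 5782 CPM in WT controls and 749.5, 806.9 and 796.3 CPM in senescent WT libraries. Of the KO libraries, controls were at 5670, 5066 and 5233 CPM and senescent ones at 600.1, 558.4 and 481.5 CPM. Control libraries of the 2 genotypes overlapped, senescent libraries lay far below all of them, and every KO senescent library lay below every WT senescent library. In bulk RNA, fewer cycling cells and less RNA per cycling cell cannot be told apart.

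**Figure D1:**
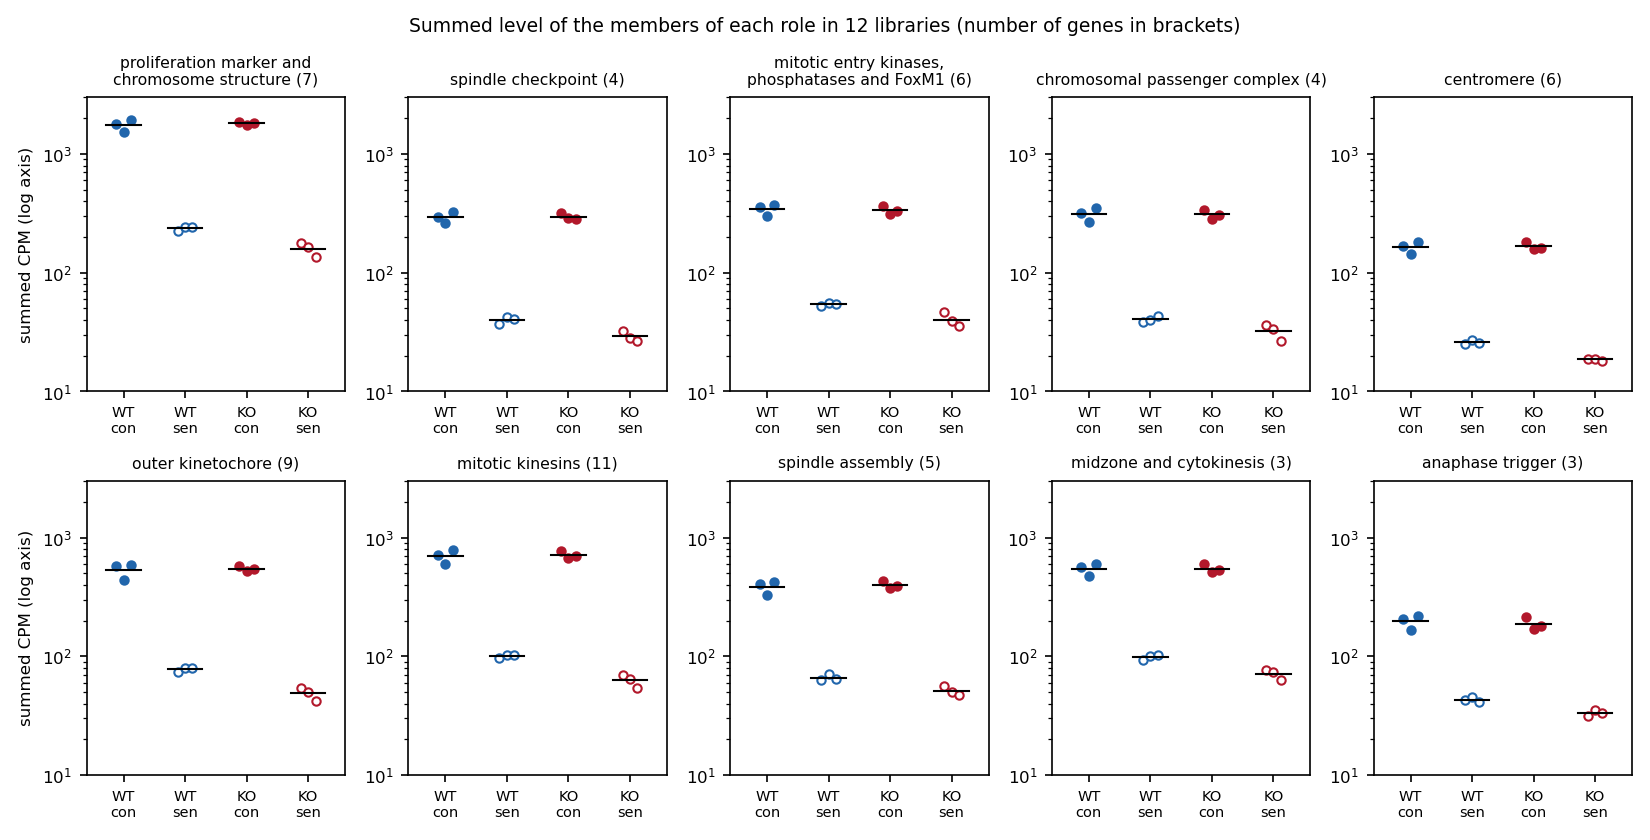
Summed CPM of the members of each of 10 roles (number of genes in brackets, log axis) in the 12 libraries. Filled points are control and open points senescent libraries, blue is WT and red is KO, and bars are group means. In every role all senescent libraries lay below all control libraries, and all KO senescent libraries lay below all WT senescent libraries.

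In WT cells 57 of the 58 members were called lower in senescence and none was called higher, where 5.90% of all genes tested were called lower and 11.6% higher. The median log2 fold change of the 58 was −2.82, and over all genes it was 0.02. In KO cells the same 57 members were called lower and none higher, with 7.58% of all genes called lower and 11.2% higher. The median there was −3.40. For these 57 members every senescent library lay below every control library in each genotype, which held for 29.7% of all genes in WT and 30.8% in KO cells. The level left in senescent cells ranged from 6.72% (Sapcd2) to 30.9% (Smc4) of the control mean in WT cells, with a median of 14.0%, and from 4.32% (Kif14) to 20.7% (Kif18a) in KO cells, with a median of 9.46%. Both counts of 57 were unchanged without any single library, WT control replicate 2 included.

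Among proliferation and chromosome structure genes, Mki67 encodes Ki-67, the coat protein of mitotic chromosomes used as a proliferation marker. It stood at 601.2, 505.9 and 672.1 CPM in WT controls and 44.9, 45.6 and 46.5 CPM in senescent WT libraries. Values of 550.0, 581.0 and 609.4 CPM were found in KO controls and 34.1, 28.4 and 16.8 CPM in senescent KO libraries. The WT senescent libraries were tightly grouped, and the KO senescent libraries spread over a wider range wholly below them. The gene, at chr7:135689784-135716361 in GRCm38, fell by 3.70 (SE 0.22) in WT and by 4.46 (SE 0.23) in KO cells. Top2a, the topoisomerase that untangles sister chromatids, fell by 3.45 (SE 0.14) in WT and by 4.12 (SE 0.14) in KO cells, with adjusted p-values of 2.60e-09 and 6.92e-10. Its counts are uncertain in part because an exon overlaps Gm23451 on the same strand. In all, 17 of the 58 members share exon bases with another gene, and strand use in counting is not stated.

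The condensin subunits of the same role compact chromosomes. Smc4 kept the largest share of its control level in WT cells. It stood at 236.6, 215.3 and 252.4 CPM in WT controls and at 69.3, 72.6 and 76.1 CPM in senescent WT libraries, a fall by 1.69 (SE 0.08). In KO cells it stood at 268.9, 224.9 and 235.9 CPM in control and 51.5, 51.2 and 43.7 CPM in senescent libraries, a fall by 2.32 (SE 0.08). The 7 genes of this role had median log2 fold changes of −2.80 in WT and −3.50 in KO cells.

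Mitotic entry is driven by the kinases PLK1 and Aurora A and by CDC25 phosphatases, which activate CDK1. Plk1 was at 92.9, 75.9 and 96.6 CPM in WT controls and 9.49, 9.63 and 9.30 CPM in senescent WT libraries. KO controls held 92.9, 74.6 and 80.5 CPM and senescent KO libraries 6.99, 6.70 and 4.66 CPM. Its groups did not overlap between states, and the KO senescent libraries lay below the WT senescent ones. Aurka fell by 2.79 (SE 0.14) in WT and by 3.33 (SE 0.15) in KO cells, and Foxm1, the transcription factor of late cell cycle genes, by 2.86 (SE 0.11) and 3.31 (SE 0.11). Plk4, the kinase that starts centriole duplication, and Cdc25b were among the smallest falls of this role, at −2.23 (SE 0.08) and −2.02 (SE 0.12) in WT cells. The medians of the 6 genes were −2.65 in WT and −3.16 in KO cells.

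The chromosomal passenger complex corrects wrong attachments and later helps to divide the cell. Its kinase Aurkb fell by 3.57 (SE 0.15) in WT and 4.47 (SE 0.16) in KO cells, among the 5 largest falls in both genotypes. Birc5, which encodes survivin, was at 75.5, 61.4 and 81.1 CPM in WT controls and 6.57, 6.23 and 6.52 CPM in senescent WT libraries, and fell by 3.50 (SE 0.13) in WT and 3.92 (SE 0.13) in KO cells. Incenp, the scaffold of the complex, had the highest level per kb of the 4 genes and the smallest change. Incenp fell by 2.496 (SE 0.13) and 2.65 (SE 0.13).

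The 6 centromere genes had medians of −2.71 in WT and −3.04 in KO cells. Cenpa, the histone H3 variant that marks the centromere, was at 67.1, 54.7 and 68.1 CPM in WT controls and 8.85, 9.06 and 9.57 CPM in senescent WT libraries. The KO controls were at 76.8, 59.5 and 61.6 CPM, and the senescent KO libraries at 5.02, 5.46 and 5.54 CPM. The KO senescent values were close together and below all WT senescent values. Cenph, highest per kb of its role, fell by 2.88 (SE 0.13) in WT and 3.15 (SE 0.13) in KO cells.

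The 9 outer kinetochore genes, whose products bind microtubules, had medians of −2.92 in WT and −3.72 in KO cells. Ska1, part of the complex that keeps kinetochores on shrinking microtubules, was at 13.8, 12.5 and 15.03 CPM in WT controls and 1.23, 1.65 and 1.27 CPM in senescent WT libraries. Of the KO libraries, controls were at 14.6, 12.9 and 13.7 CPM and senescent ones at 0.85, 0.50 and 0.64 CPM. These last values rest on 22, 14 and 19 counts, the KO senescent libraries lay below the WT senescent ones, and the control libraries overlapped. Within the NDC80 complex Spc24 fell by 3.32 (SE 0.13) in WT and 4.23 (SE 0.14) in KO cells, while its partner Spc25 fell by 1.84 (SE 0.09) and 2.54 (SE 0.09).

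Spindle checkpoint genes had medians of −3.09 in WT and −3.76 in KO cells. Bub1, a checkpoint kinase, was at 60.2, 53.5 and 69.0 CPM in WT controls and 5.85, 8.01 and 6.64 CPM in senescent WT libraries. Values of 66.4, 59.2 and 59.2 CPM were found in KO controls and 4.63, 3.16 and 3.65 CPM in senescent KO libraries. Again the control libraries overlapped between genotypes and the senescent ones did not. Bub1b, which encodes the inhibitor BUBR1, had the highest level per kb of the 4 genes and fell by 3.03 (SE 0.10) and 3.64 (SE 0.10).

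Kinesins of mitosis move chromosomes and slide or shorten microtubules. Kif14, which acts in cytokinesis, had the largest fall of all members in KO cells, from 45.0, 41.9 and 43.2 CPM in control to 2.47, 1.67 and 1.49 CPM in senescent libraries, a fall by 4.54 (SE 0.13). In WT cells it went from 42.4, 39.3 and 47.3 CPM to 4.08, 3.43 and 3.63 CPM, a fall by 3.53 (SE 0.11). Kif18a, which limits the length of attached microtubules, was at the other end in KO cells, with a fall by 2.29 (SE 0.13) in WT and 2.27 (SE 0.13) in KO cells. Kif20a, highest per kb of the 11 kinesins, fell by 2.13 (SE 0.12) and 2.92 (SE 0.13), with an exon overlapping Cdc23.

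Of the spindle assembly genes, Sapcd2, a regulator of spindle orientation, had the largest fall of all members in WT cells. It was at 10.7, 9.12 and 10.4 CPM in WT controls and 0.48, 0.94 and 0.62 CPM in senescent WT libraries. KO controls held 12.4, 8.22 and 8.37 CPM and senescent KO libraries 0.73, 0.99 and 0.27 CPM. The lowest of these was 8 counts, and senescent libraries of the 2 genotypes overlapped. Tpx2, which activates Aurora A on the spindle and was highest per kb of the 5 genes, fell by 2.40 (SE 0.13) in WT and 2.46 (SE 0.13) in KO cells. Anln, the anillin of the contractile ring, fell by 2.03 (SE 0.10) and 2.48 (SE 0.10), the smallest fall of the 3 genes for midzone and cytokinesis.

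Anaphase begins when CDC20 activates the anaphase-promoting complex, which destroys securin and so frees separase. Cdc20 was at 124.5, 106.9 and 143.4 CPM in WT controls and 18.6, 21.2 and 19.7 CPM in senescent WT libraries. Of the KO libraries, controls were at 136.8, 106.7 and 109.3 CPM and senescent ones at 11.5, 14.4 and 11.5 CPM. All senescent values were below all control values, and the KO senescent values below the WT ones. Its fall was by 2.65 (SE 0.14) in WT and 3.24 (SE 0.14) in KO cells.

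Pttg1, which encodes securin, was the exception among the 58. It was at 10.3, 8.67 and 8.71 CPM in WT controls and 16.2, 16.3 and 14.5 CPM in senescent WT libraries. Values of 9.68, 8.69 and 9.53 CPM were found in KO controls and 13.8, 14.8 and 16.3 CPM in senescent KO libraries. Every senescent library lay above every control library in both genotypes. The rise was 0.76 (SE 0.10) in WT and 0.69 (SE 0.10) in KO cells, with adjusted p-values of 2.33e-06 and 8.84e-06 in edgeR's quasi-likelihood test. It stayed under the fold threshold of a call, and 29.2% of all genes in WT and 28.5% in KO cells passed the adjusted p upward. The other member that acts with securin, Espl1 (separase), fell by 3.03 (SE 0.12) and 3.40 (SE 0.12).

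**Figure D2:**
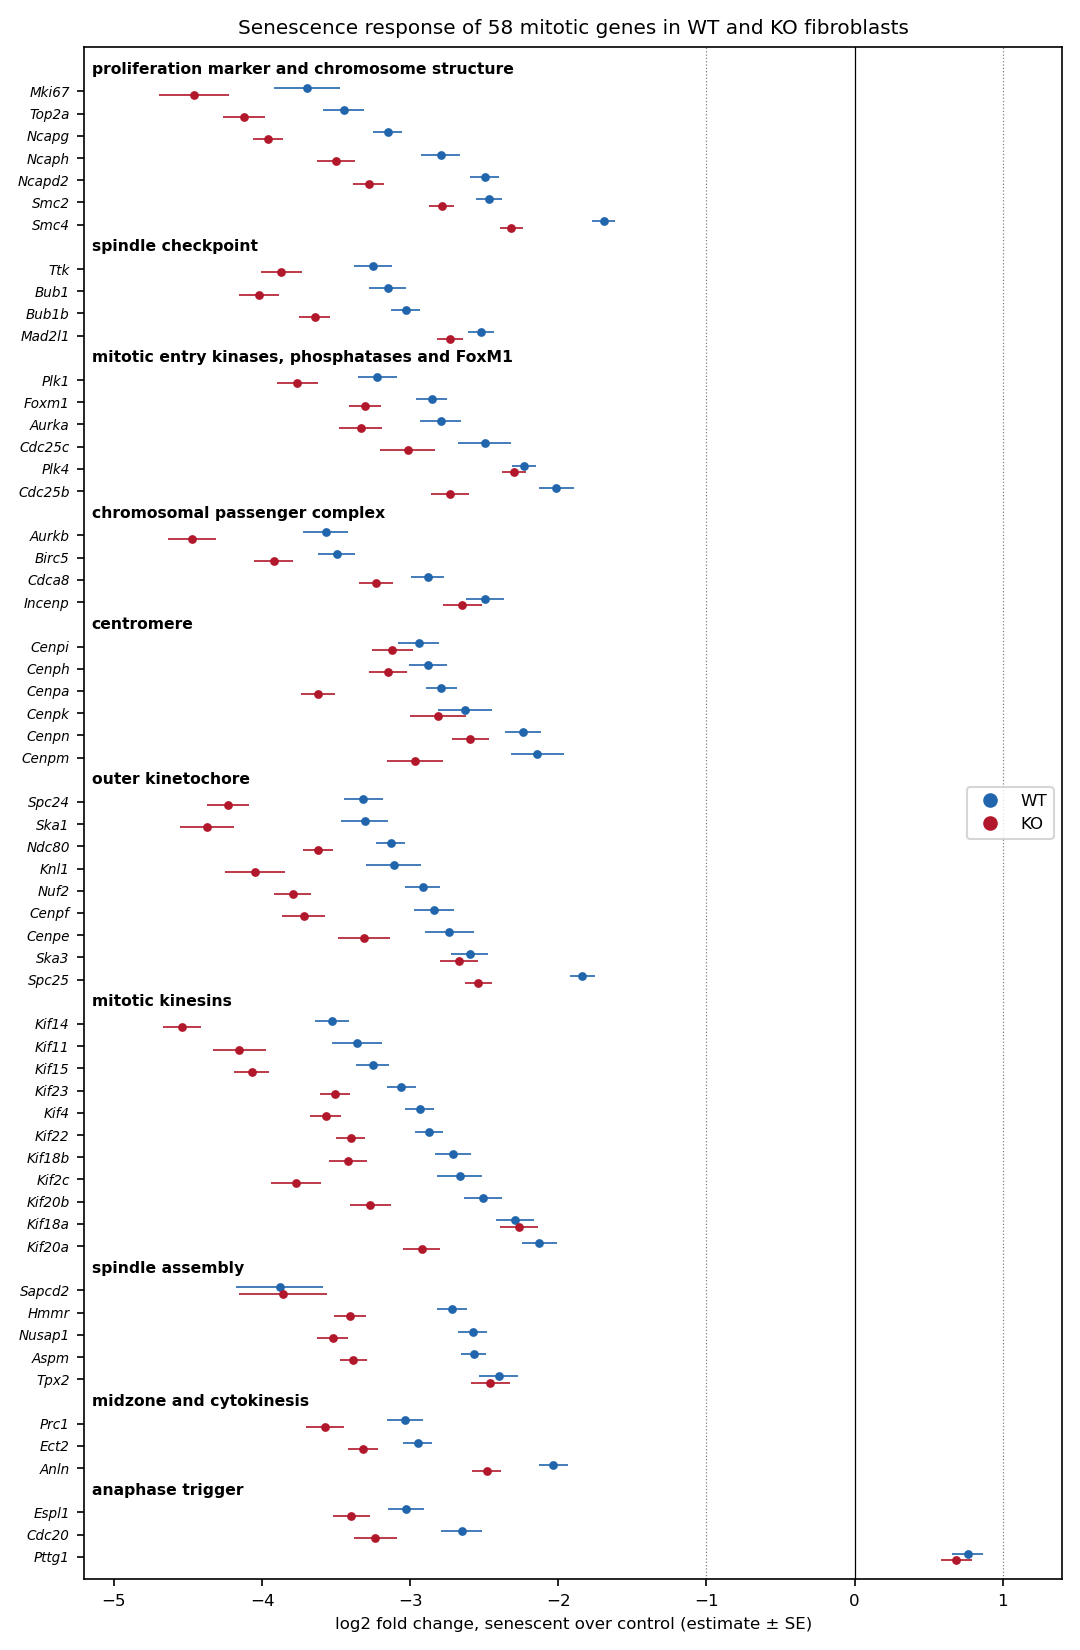
Log2 fold change of each of the 58 members in senescent over control cells, with SE, in WT (blue) and KO (red) cells, ordered within role by the WT value. Dotted lines mark the fold threshold, and 57 members lay beyond it on the left while Pttg1 lay on the right of 0 in both genotypes.

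Levels between genes were compared per kb of exon. In WT control cells Cdc20 was highest at 66.9 CPM per kb, followed by Mki67 at 59.0, Top2a at 53.1, Smc4 at 45.1 and Plk1 at 40.2. The same 5 genes led in KO control cells in the same order. In senescent cells the order differed. Smc4 led at 13.9 CPM per kb in WT and 9.37 in KO cells, and Pttg1 came to 7.84 in WT, behind Smc4 and Cdc20, and to 7.47 in KO cells, behind Smc4. Mki67 stood at 4.54 and 2.63 CPM per kb in senescent WT and KO cells.

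Across the 58 members the fold changes of the 2 genotypes, which come from different libraries, ran closely together, with Pearson's r of 0.936 and Spearman's rho of 0.894. Without Pttg1 they were 0.879 and 0.889 over 57 genes. These are descriptions across genes, which share libraries and are not independent replicates.

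The comparison of the responses asked whether the fall differed between the KO and WT libraries. The difference between the KO and WT log2 fold changes (the interaction) had a median of −0.62 against −0.03 over all genes. It was below 0 for 56 of the 58 members and for 9227 of all 17416 genes tested. It passed an adjusted p under 0.05 for 35 members, all with the larger fall in KO cells, and for none with the smaller fall. Over all genes 11.7% passed with a lower and 9.24% with a higher response in KO cells. A difference beyond the fold threshold as well was found for 3 members, all with the larger fall in KO cells. Of all genes 2.51% had one with the lower and 1.15% with the higher response in KO cells. The count of 35 ranged from 25 to 41 when 1 library was left out, and was 25 without WT senescent replicate 2.

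The 3 members were Kif2c, Ska1 and Kif14. Kif2c encodes MCAK, a kinesin that takes microtubules apart to release wrong attachments. It was at 48.2, 44.1 and 57.7 CPM in WT controls and 7.79, 8.42 and 7.37 CPM in senescent WT libraries. KO controls held 61.0, 46.8 and 49.1 CPM and senescent KO libraries 3.74, 4.89 and 2.87 CPM. Control libraries overlapped, and senescent KO libraries were all below the WT ones. The interaction was −1.10 (SE 0.23, adjusted p 0.00493, edgeR's quasi-likelihood test) for Kif2c, −1.06 (SE 0.26, 0.00581) for Ska1 and −1.01 (SE 0.18, 0.000578) for Kif14. Next in size were Nusap1 at −0.94 (SE 0.15) and Knl1, the kinetochore scaffold for checkpoint proteins, at −0.94 (SE 0.28). The number of members past the fold threshold was 8 without KO senescent replicate 1, 5 without WT senescent replicate 1, and 1 without KO control replicate 1 or without KO senescent replicate 3.

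The passing members were spread unevenly over the roles. They were 10 of 11 kinesins, 7 of 9 outer kinetochore genes, 5 of 7 genes of proliferation and chromosome structure, 3 of 4 checkpoint genes, 3 of 5 spindle assembly genes and 2 of 3 genes of midzone and cytokinesis. Of the others, 2 of 6 entry genes (Cdc25b and Foxm1), 2 of 6 centromere genes (Cenpa and Cenpm), 1 of 4 passenger complex genes (Aurkb) and 0 of 3 anaphase genes passed. Whether roles differ was not tested. Several passes were close to the threshold, and Foxm1 and Kif11 no longer passed in 12 of their 21 alternative fits. The 0 of 3 includes Cdc20 at −0.58 (SE 0.19, adjusted p 0.0565), which passed in 7 of its 21 alternative fits, so the miss is close to the threshold. Mki67 missed too, at −0.76 (SE 0.30, adjusted p 0.112), with KO senescent libraries that spread from 16.8 to 34.1 CPM.

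Some members gave estimates near 0. For Kif18a the interaction was 0.02 with a 95% interval of −0.36 to 0.40, for Plk4 −0.06 with an interval of −0.30 to 0.18, and for Tpx2 −0.06 with an interval of −0.46 to 0.34. For Sapcd2 it was 0.02 with an interval of −0.95 to 0.99, which is too wide at 8 to 28 senescent counts to set against the other members. Pttg1 had an interaction of −0.08 with an interval of −0.38 to 0.23, so its rise did not differ detectably between genotypes.

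Grouped by the RefSeq promoters, 26 of the 36 members with CHR letters passed the interaction test (72.2%), with a median interaction of −0.68. Of the 13 members with a promoter but no CHR letters 3 passed (23.1%), namely Ncaph, Nuf2 and Nusap1, and the median was −0.21. The remaining 9 members had no promoter in the table, and 6 of them passed. The fall in WT cells was similar in the first pair of groups, with medians of −2.88 and −2.74. This split was made with the values known, the groups are small, and it is given as a description without a test. It also rests on RefSeq starts that can lie inside the annotated gene. The windows of Kif14, Kif2c, Cdca8, Cenpm and Kif4, with CHR letters, and of Pttg1, without them, lay wholly inside the gene. Levels were not adjusted for. Some members without CHR letters that did not pass had low mean levels, such as Cenpk at 8.70 CPM, and others did not, such as Mad2l1 at 57.1 CPM. Of the members with estimates near 0 above, Plk4, Kif18a and Pttg1 held no CHR letters and Tpx2 had no promoter in the table. Sapcd2 also held no CHR letters, but its interval was too wide to count it with them. Ska3, with an interaction of −0.07 and a 95% interval of −0.45 to 0.31, held CHR letters at position −14. Kif18a held an E2F match at position −10.

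Between control cells of the 2 genotypes the members hardly differed. The median KO minus WT difference was 0.02, and it was −0.07 without WT control replicate 2 and 0.10 without WT control replicate 3. No member was called, where 1.18% of all genes were called lower and 1.36% higher. None passed the adjusted p downward, where 4.96% of all genes did, and 2 passed it upward, where 8.07% did. Counts this small do not set the members apart from all genes. Ncaph, a condensin subunit, was at 35.5, 28.5 and 34.2 CPM in WT and 63.2, 55.2 and 56.5 CPM in KO control libraries, with no overlap. Its difference was 0.83 (SE 0.11, adjusted p 4.13e-05, edgeR's quasi-likelihood test). Nusap1, a protein that bundles spindle microtubules, was at 47.5, 42.0 and 49.4 CPM in WT and 63.8, 56.2 and 58.7 CPM in KO control libraries, a difference of 0.36 (SE 0.09, adjusted p 0.00621). An exon of Nusap1 overlaps Oip5. Cdc25b was the only member with every KO control library below every WT control library, at −0.30 (SE 0.11), and did not pass (adjusted p 0.0806). Such a separation was found for 10.3% of all genes. Ncaph was named after its values were seen, and Nusap1 for the size of its interaction.

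In senescent cells the same comparison gave lower values in KO cells for 57 of the 58 members, with a median of −0.58. Of all 17416 genes tested 9144 were lower, with a median of −0.02. The adjusted p was passed by 44 members, all lower in KO cells, where 11.8% of all genes passed in that direction, and 3 were called lower, where 2.19% of all genes were. Every KO senescent library lay below every WT senescent library for 47 members, against 21.0% of all genes. The 44 became 31 without WT senescent replicate 2, which left the direction unchanged.

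The 3 called members were Ska1 at −1.07 (SE 0.22, adjusted p 0.00128, edgeR's quasi-likelihood test), Kif2c at −1.04 (SE 0.19, 0.00145) and Cdc25b at −1.02 (SE 0.14, 2.66e-05). Cdc25b was at 8.74, 8.62 and 9.92 CPM in senescent WT and 5.94, 3.72 and 3.88 CPM in KO senescent libraries, with an exon overlapping Spef1. Kif14, at −0.9997 (SE 0.16), lay just inside the fold threshold and was not called. The 3 calls became 7 without KO senescent replicate 1 and 1 without KO senescent replicate 3. The only member higher in KO senescent cells was Ncaph, at 5.92, 4.01 and 4.17 CPM in WT senescent and 5.98, 4.79 and 4.73 CPM in KO senescent libraries, a difference of 0.13 (SE 0.15) that did not pass. Ncaph therefore fell further in KO than in WT cells, by 3.50 against 2.80, from a higher level to a like one, with an interaction of −0.70 (SE 0.19, adjusted p 0.0127).

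**Figure D3:**
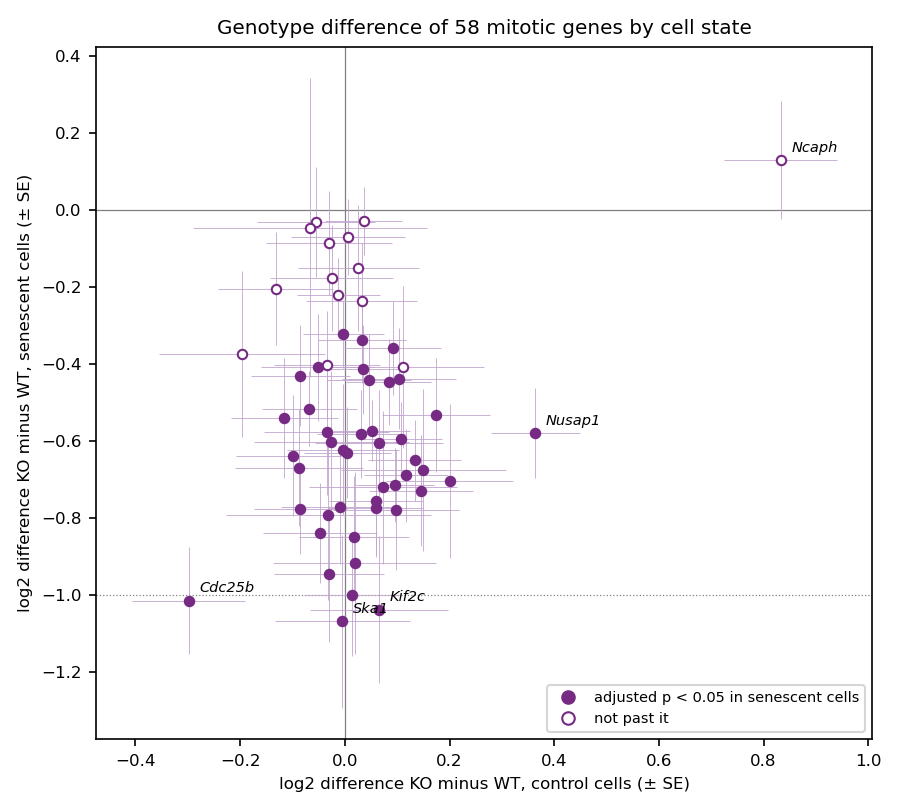
Log2 difference KO minus WT of each of the 58 members in control cells (horizontal axis) and in senescent cells (vertical axis), with SE. Filled points passed an adjusted p under 0.05 in senescent cells, and the dotted line marks the fold threshold. Most members sit near 0 on the horizontal axis and below 0 on the vertical axis, with Ncaph as the only member above 0 on both.

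The tables of counts were deposited 1 per genotype, so genotype and any difference in handling between the tables cannot be told apart in these comparisons of KO with WT cells. Lists of markers of other cell types did not all move with the members. In senescent cells the median KO minus WT difference was 0.72 for the 4 skeletal muscle markers tested, all higher in KO cells. For the chondrocyte list it was −1.62 in senescent and −0.41 in control cells. All 10 chondrocyte markers on the list, among them Col2a1 and Acan of cartilage, were called lower when senescent KO cells were compared with senescent WT cells, and 9 of the 10 passed the interaction test with the lower response in KO cells. Their summed level was 7705 to 9592 CPM in WT control, 2183 to 2522 in WT senescent, 5093 to 7029 in KO control and 703 to 820 CPM in KO senescent libraries, and none was at 0 in all libraries of a group. Their part in the members' difference was not tested.

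**Figure D4:**
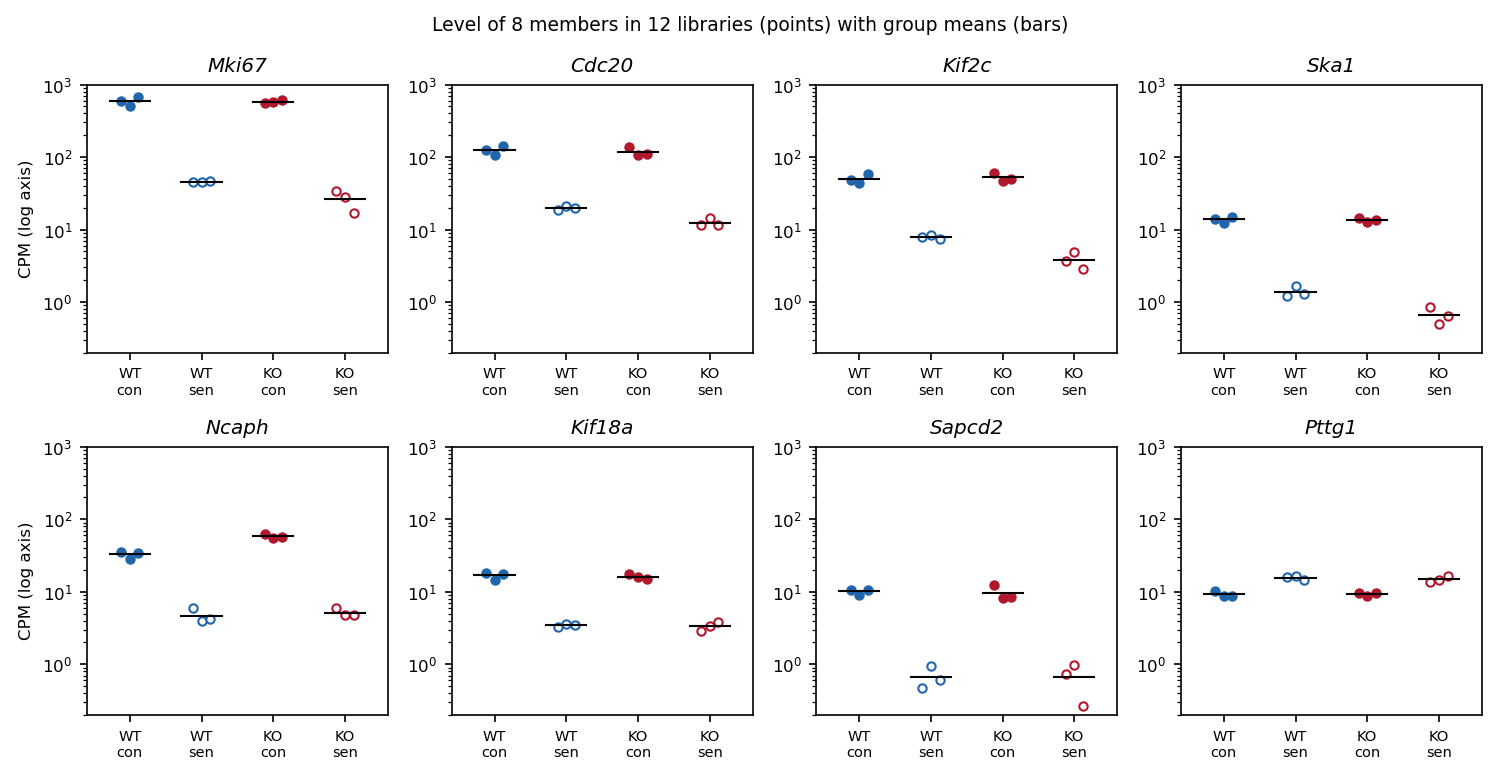
Level of 8 members in CPM (log axis) in the 12 libraries, with group means as bars, filled points for control, open points for senescent, blue for WT and red for KO libraries. In senescence Kif2c and Ska1 were lower in KO than in WT libraries, and Pttg1 rose. Ncaph was higher in KO control cells. For Kif18a and Sapcd2 the libraries of the genotypes overlapped in each state, with few senescent counts for Sapcd2.

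Genes of related groups put the members in context. Of 56 other mitotic genes, 45 were called lower in WT and 45 in KO cells, with medians of −2.32 and −2.70. The kinase gene Melk fell by 3.59 (SE 0.14) in WT and 3.88 (SE 0.14) in KO cells. Troap, whose product associates with the spindle, fell by 3.17 (SE 0.14) in WT and 4.28 (SE 0.16) in KO cells, with an interaction of −1.11 (SE 0.23), and an exon of it overlaps Gm34284. Psrc1, a microtubule protein of the spindle, went against the list and was called higher in both, by 1.504 (SE 0.07) in WT and 1.14 (SE 0.07) in KO cells. Zwint, a kinetochore gene, rose in KO cells by 0.51 (SE 0.07) and was at 0.08 (SE 0.07) in WT cells, where it did not pass, with an interaction of 0.43 (SE 0.10, adjusted p 0.00305). Of the 56 genes 17 passed the interaction with the lower and 2 with the higher response in KO cells.

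Of 30 replication genes, which act in S phase before mitosis, 29 were called lower in each genotype, with medians of −2.08 in WT and −2.24 in KO cells, and Cdc6, a licensing factor, fell by 3.17 (SE 0.10) and 3.50 (SE 0.11). In the interaction 4 of the 30 passed with the lower response in KO cells, where 11.7% of all genes did, Mcm10 among them at −0.62 (SE 0.16), and the median interaction was −0.17. The 15 genes of the anaphase-promoting complex, its activator Fzr1 included, had medians of −0.24 and −0.26, with 0 called in WT and 1 in KO cells (Fzr1, by 1.09). Of 10 cohesin genes only Rad21, the subunit cleaved by separase, was called lower, by 1.04 in WT and 1.15 in KO cells. Of 22 kinesins outside mitosis none was called lower and 5 in WT and 4 in KO cells were called higher, Kif26a by 2.22 and 2.65. Kif26b, with an exon overlapping Gm16564, was at 0.82 (SE 0.20) in WT and −0.95 (SE 0.19) in KO cells, an interaction of −1.77 (SE 0.28).

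Of 15 genes of the DREAM and MuvB complexes and their partners, 5 were called lower in WT and 4 in KO cells. Mybl2, which encodes B-MYB, the activator of MuvB, fell by 3.73 (SE 0.13) in WT and 4.14 (SE 0.14) in KO cells. Rbl2, which encodes the DREAM subunit p130, rose in WT cells by 0.74 (SE 0.07) and was at 0.16 (SE 0.07) in KO cells, with an interaction of −0.58 (SE 0.09, adjusted p 0.000235), and its exons overlap Aktip. The KO value had an adjusted p of 0.0453 in edgeR's quasi-likelihood test and did not pass in 15 of 22 alternative fits. The counts of these lists are descriptions beside the shares of all genes given above, and the genes named from them were chosen with their values known.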

How the data were processed

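Poly(A) RNA libraries of 12 samples, 3 per group, were sequenced in read pairs. Per the study's methods and the submitters' processing notes, the authors demultiplexed with bcl2fastq 2.17, trimmed with Trimmomatic 0.36, aligned with STAR 2.5.2b to GRCm38 and counted uniquely aligned exon reads with featureCounts. The authors deposited whole-number counts per gene, not normalized, in 1 table per genotype. Strand use in counting is not given in the sources used here. All columns of counts were used (0 left out).

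The tables were joined by gene identifier and fitted together in R 4.3.3 with edgeR 4.0.16 (TMM scaling, filterByExpr over the 4 groups, robust quasi-likelihood F-test, 1 mean per group), which tested 17416 of 49315 identifiers. Adjusted p-values follow Benjamini-Hochberg over all genes tested. A call needed an adjusted p under 0.05 and a log2 fold change over 1 in size. The SE is the log2 fold change divided by the square root of F. The fit was run on simulated counts with changes set in the WT senescent libraries only. Only the WT response was tested on them, not the interaction. Alternatives used DESeq2 1.42.0, other scalings and filters, glmTreat, a replicate block and leaving out each library. Same-numbered libraries did not deviate together (correlations −0.125 to 0.127).

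The members, their roles and the other gene lists were chosen with earlier results of these data known. Named members were the highest per kb in each role, the 5 largest and 5 smallest falls in each genotype, the 5 largest interactions, every member called between genotypes, and a fixed panel (Mki67, Top2a, Foxm1, Aurka, Aurkb, Plk1, Bub1, Cdc20, Birc5 and Cenpa). From the other lists at most 4 genes each were named, and any other gene was named after its values were seen. Promoters came from RefSeq (GRCm38.p6), gene positions and overlaps from the GRCm38 annotation.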

Additional observations from a re-analysis of the deposited data

Results flagged for a closer look

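A different senescence response in KO and WT cells was found for 35 of the 58 members by the interaction term of edgeR's quasi-likelihood fit (adjusted p under 0.05), and for some genes of the other lists. The difference between the log2 fold changes, KO minus WT, was −1.10 for Kif2c, −1.06 for Ska1, −1.01 for Kif14, −0.94 for Nusap1, −0.94 for Knl1, −0.92 for Spc24, −0.90 for Aurkb and −0.87 for Bub1. It was −0.83 for Cenpa, −0.81 for Aspm, −0.79 for Kif20a, −0.72 for Cdc25b, −0.70 for Ncaph, −0.70 for Spc25, −0.67 for Top2a, −0.63 for Smc4, −0.61 for Bub1b, −0.45 for Foxm1 and −0.45 for Anln. Ncaph and Nusap1 also differed between control cells.

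Among genes that are not members, the same test gave −1.11 for Troap, −0.37 for Psrc1, −0.62 for Mcm10, −0.58 for Rbl2, −1.77 for Kif26b and 0.43 for Zwint.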

How the results depend on the processing

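The 57 calls in each genotype held under every alternative run. Total counts without TMM gave medians of −2.65 in WT and −3.25 in KO cells, with the median of all genes moved by 0.17 and 0.15. Without a fold threshold 1 member was called higher in WT and 1 in KO cells, 35 were called lower in the interaction, 2 higher in KO control cells and 44 lower in KO senescent cells. glmTreat called 0 in the interaction and 0 in KO against WT senescent cells. In control cells 1 member passed downward with no filter on low counts and 1 with the replicate block over all libraries. With the replicate block over all libraries 35 members passed the interaction. Whether same-numbered libraries shared more than a number is not given in the sources used here.

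Leaving out 1 library gave 1 to 8 members called lower in the interaction, 1 to 7 in KO against WT senescent cells, and 0 to 1 past the adjusted p downward in control cells. The interaction of members near 0 changed sign. It ranged from −0.0744 to 0.12 for Kif18a, −0.41 to 0.41 for Sapcd2, −0.16 to 0.0048 for Plk4, −0.13 to 0.0586 for Tpx2 and −0.24 to 0.0035 for Incenp. Foxm1 and Kif11 no longer passed the adjusted p of the interaction in 12 of 21 alternatives, Prc1 in 10, and Top2a, Ttk and Knl1 in 8 each. The cause was not tested.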
